A study of Mus musculus with 8 samples.

Results

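Formalin-fixed, paraffin-embedded (FFPE) mouse brain was compared with flash-frozen mouse brain by RNA sequencing. Of the 27179 genes in the deposited table, the 14142 with a log2 value above 0 in at least 1 of the 2 brain columns were taken, and no other choice was made among them. Of these, 136 have no symbol. The value is the log2 of reads per 1000000 (log2 CPM), so the limit of 0 stands for 17.9 reads in FFPE brain and 25.2 reads in frozen brain. There were 136 genes whose higher value lay from 0 to 0.1, just inside the limit, and 87 from −0.1 to 0, just outside it.

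The study also holds FFPE and frozen heart, kidney and liver, with 1 library for each of the 4 organs and each preservation, 8 libraries in all. The frozen brain was snap-frozen after harvest, and the FFPE brain was fixed in 10% formalin and embedded. RNA of both was isolated with Trizol and sheared in the PIXUL sonicator, and for FFPE tissue the paraffin was first removed. Genotype, strain, age and sex of the mice, how many were used, whether tissue was pooled and which piece of brain went into each extraction are not stated in the labels. Preservation, animal and dissected piece therefore cannot be told apart in this pair. With 1 library a side there is no replicate check: intervals given here are 95% intervals that cover counting error only, and no molecular identifiers are named, so reads need not be separate molecules.

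FFPE brain had 10180972 reads assigned to genes and frozen brain 16807233, and 21002 and 18722 genes respectively had a read. The authors' scaling makes 1.41 frozen reads equal to 1 FFPE read, so read numbers below are to be set against that ratio. Where a pair of read numbers follows a gene, the first is that of frozen brain. The floor of 3 reads is 0.168 CPM in FFPE and 0.119 CPM in frozen brain. Where 1 library has no reads, the fold is given as a lower bound with 3 reads in place of 0.

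Regions of the brain differ in which transcription factors, transmitter enzymes, receptors and peptides their neurons make, so a few genes mark each region in RNA from whole tissue. Granule and Purkinje cells mark the cerebellum, Hox genes the hindbrain and spinal cord, peptide hormones the hypothalamus, and the hormones of the anterior lobe the pituitary, a gland below the hypothalamus that is joined to it by a stalk. Formalin fixation joins RNA to protein and fragments it, and RNA from such tissue is commonly short. In bulk tissue, fewer cells of a type and less RNA per cell cannot be told apart.

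The sex-linked transcripts of the pair did not match and are given before the other results. Ddx3y, a Y-linked RNA helicase, had 0 reads in frozen and 224 in FFPE brain. Eif2s3y, a Y-linked translation factor, had 0 and 189 reads, and Kdm5d, a Y-linked histone demethylase, 0 and 181. Uty, the Y-linked relative of Kdm6a, had 1 and 197 reads. Xist, the long non-coding RNA of the inactive X chromosome, was abundant in both, with 13170 reads in frozen and 9954 in FFPE brain, a log2 difference of 0.09. Tsix, the antisense RNA of Xist, had 7 and 10 reads and did not enter. Frozen brain therefore held Xist with almost no Y-linked reads, and FFPE brain held both. In the other organs it was the frozen libraries that lacked Xist, with 7 reads in heart, 1 in kidney and 3 in liver, against 4652, 15389 and 24213 in FFPE. Ddx3y was read in all 6 of those libraries, with 634 and 233 reads in frozen and FFPE heart, 525 and 450 in kidney, and 639 and 308 in liver. The 4 FFPE libraries thus each held Xist and Y-linked transcripts. What this means for the number or sex of the animals was not tested.

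**Figure D1:**
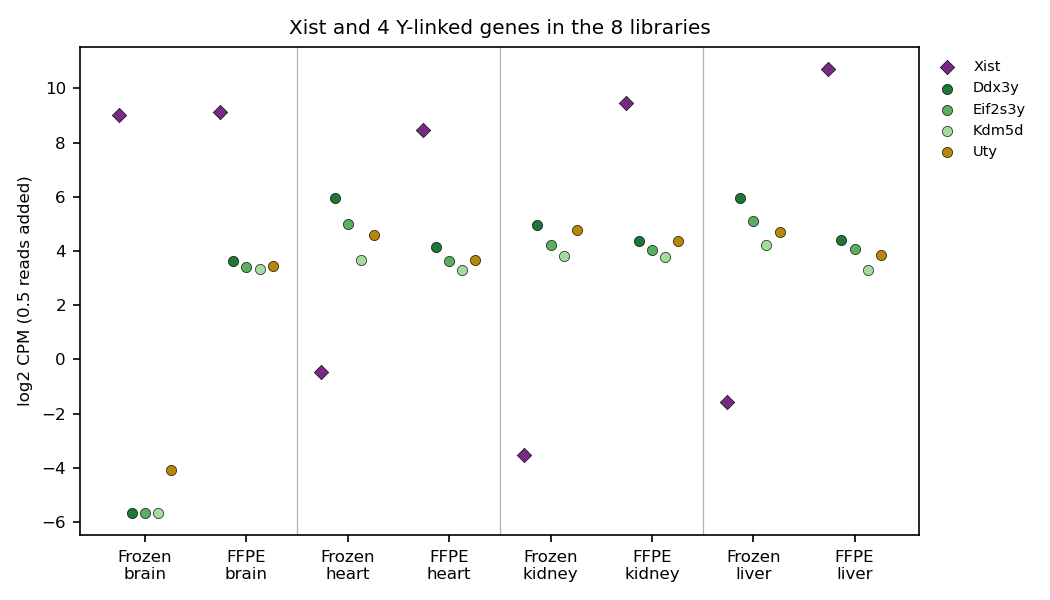
Log2 CPM of Xist and of the Y-linked genes Ddx3y, Eif2s3y, Kdm5d and Uty in the 8 libraries, 1 point per library. FFPE brain shows all 5 genes, whereas frozen brain shows Xist and has the Y-linked genes at 0 or 1 read.

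Most genes were at similar levels in both brains. The log2 difference, FFPE minus frozen, had a median of −0.05 and an SD across genes of 0.82, with a range from −8.78 to 13.27, and 12559 genes (88.8%) lay within 2-fold. Across genes, which are not independent replicates, Pearson's r of the log2 values was 0.918. In FFPE brain 800 genes (5.66%) were at least 2-fold higher and 783 (5.54%) at least 2-fold lower, and these shares are the background for every count below. At 4-fold the counts were 228 higher (1.61%) and 115 lower (0.813%). Without the authors' scaling factor the median moved to 0.18 and the counts to 1231 higher and 455 lower, so the balance of directions depends on the scaling (50.5% against 73.0% of the differing genes higher). Of the entered genes, 25 had no reads in frozen and 3 none in FFPE brain.

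Genes of short transcripts were lower in FFPE brain more often than genes of long ones. Over 13603 genes with a transcript length in GENCODE M21 (96.2%), split into 4 classes of equal size, the shortest class, 66 to 2330 nucleotides, had a median log2 difference of −0.33, with 10.3% of genes at least 2-fold lower and 5.64% higher. The longest class, from 4997 nucleotides, had a median of 0.13, with 2.26% lower and 5.50% higher. Of the 39 lists, those with a median length in the shortest class were the small nucleolar RNAs (128 nucleotides), blood (699), pituitary (878.5), the nuclear respiratory chain (1046), cytoplasmic ribosomal proteins (1100.0), neuropeptides (1238), hypothalamus (1320.0), ependyma (1447), mitochondrial ribosomal proteins (1884) and microglia (2287). The median difference was above 0 for the small nucleolar RNAs and the pituitary and below 0 for the others. The part of length in those results was not tested.

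**Figure D2:**
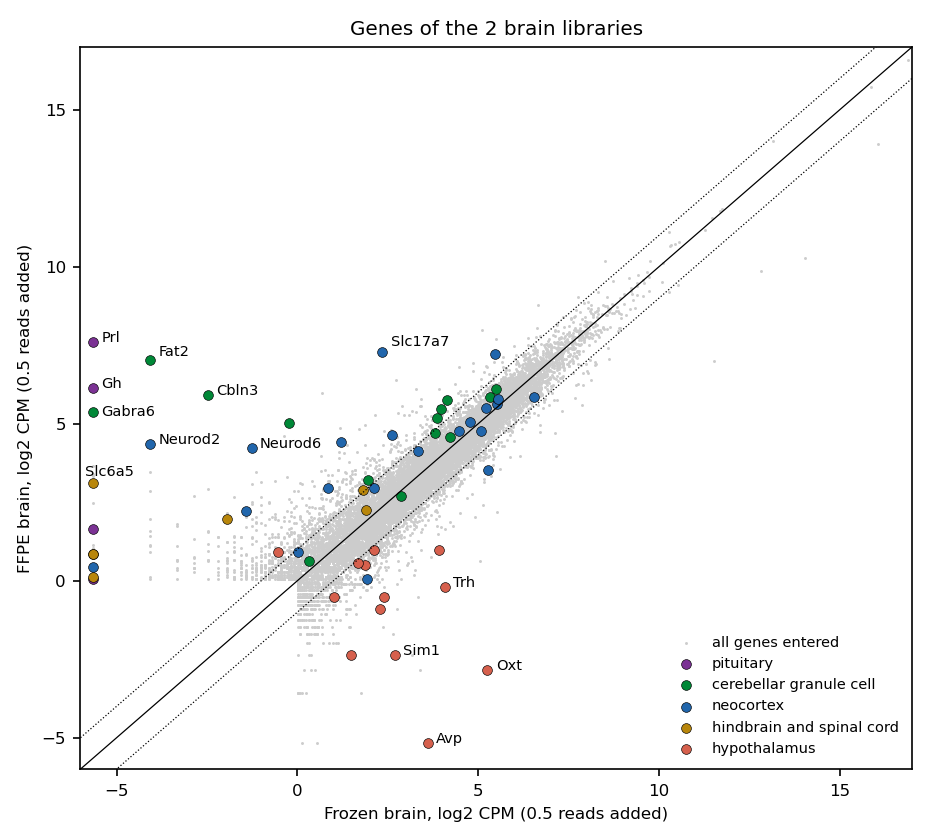
Log2 CPM of the 14142 genes in frozen brain (x axis) and FFPE brain (y axis), 1 point per gene, with members of marker lists coloured and dotted lines at a 2-fold difference. Most points lie between the lines, and pituitary and some cerebellar markers stand far above them with several hypothalamic markers far below.

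Both libraries carried neuronal and glial transcripts as the brain label says. None of the 20 pan-neuronal markers, such as those of synaptic vesicles and neurofilaments, differed by 2-fold, their median log2 difference was 0.02, and their summed level was 4380 CPM in frozen and 4451 CPM in FFPE brain. The genes that did differ more often belonged to a marker list: 88 of the 800 higher genes (11.0%) and 55 of the 783 lower genes (7.02%), against 270 of the 12559 others (2.15%). Of the 100 largest rises 34 were list members, and of the 100 largest falls 17. The lists were chosen with earlier results of these data known, so these shares are a description and not a test. Of 39 lists, 10 had a median of 1 or more on the log2 scale and 3 a median of −1 or less.

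**Figure D3:**
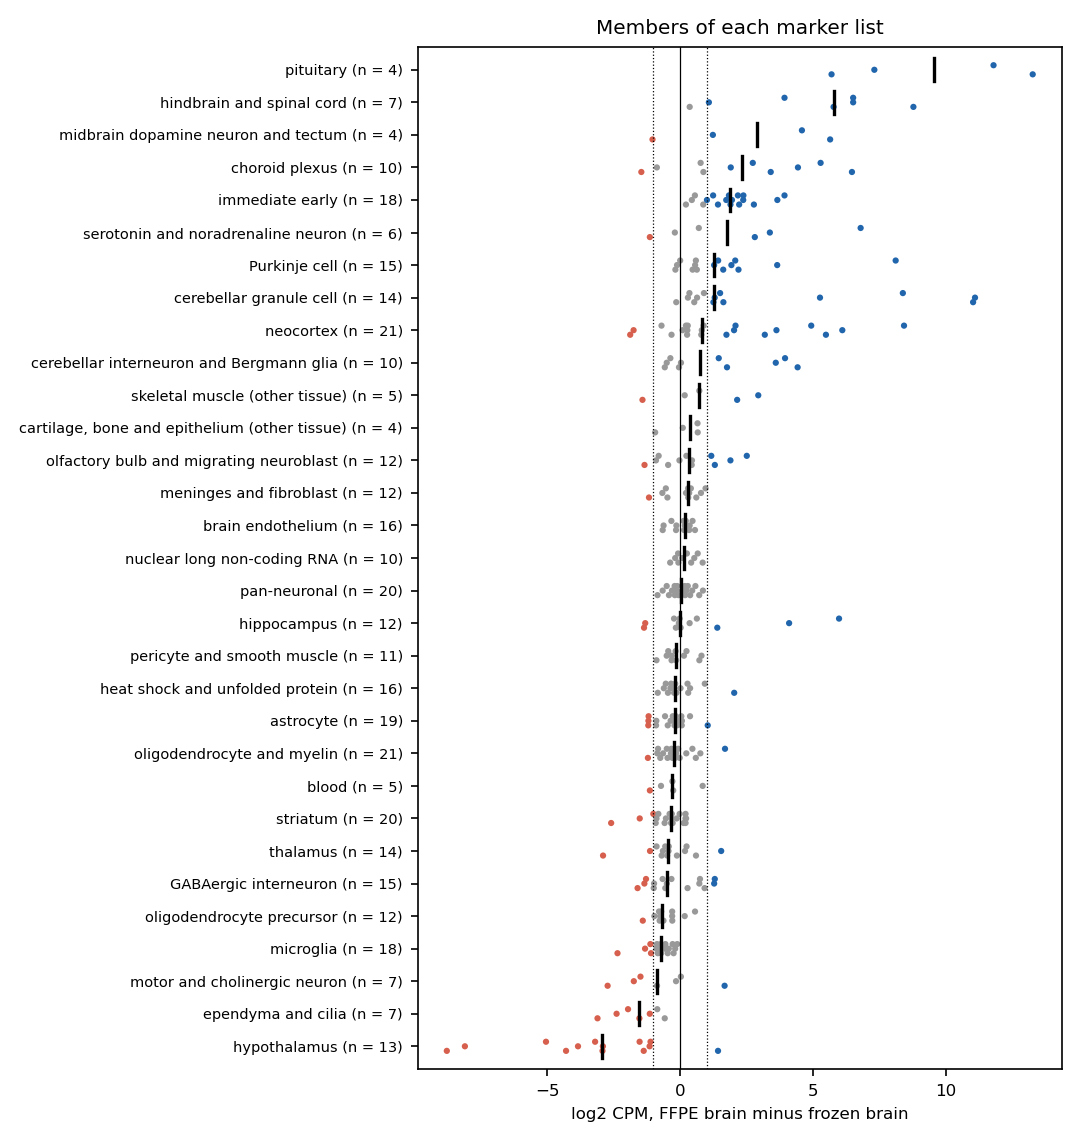
Log2 difference, FFPE minus frozen brain, of each entered member of the marker lists, with a bar at each list's median and points coloured where the difference reaches 2-fold. Pituitary, hindbrain, choroid plexus and cerebellar lists lie to the right and the hypothalamic list to the left, and the pan-neuronal list is centred on 0.02.

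Pituitary hormones gave the widest gap of all. Prl, which encodes prolactin, had 0 reads in frozen and 3515 in FFPE brain, a log2 difference of 13.27 and at least 1649.9-fold higher in FFPE. Gh, growth hormone, had 0 and 1265 reads (at least 594-fold higher). The glycoprotein hormone alpha chain Cga had 0 and 56 reads (at least 26.3-fold), and the thyrotropin beta chain Tshb 0 and 18 (at least 8.45-fold). All 4 entered members of the 10-gene list were higher, with a median log2 difference of 9.56, or 6.97 with the genes without frozen reads at their bounds. The other 6 fell below the limit. Among them Pou1f1, the transcription factor of growth hormone and prolactin cells, had 0 and 17 reads, Ghrhr 0 and 11, Fshb 0 and 6, Lhb 1 and 5, and Tbx19 0 and 3. Over the list, frozen brain had 1 read and FFPE brain 4899, with 9 of 10 genes at 0 in frozen and 0 of 10 at 0 in FFPE. FFPE heart also had 15 Prl and 5 Gh reads, and FFPE kidney 2 Gh reads.

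The promoter of Prl, the gene with the largest difference, is shown with matches to TATNCAT, a core of the sites that Pou1f1 binds, in capitals. It is the 250 bases before the annotated start, 5′ to 3′ on the gene's strand (chr13:27057320-27057569, plus strand, RefSeq, GRCm38.p6).
Prl: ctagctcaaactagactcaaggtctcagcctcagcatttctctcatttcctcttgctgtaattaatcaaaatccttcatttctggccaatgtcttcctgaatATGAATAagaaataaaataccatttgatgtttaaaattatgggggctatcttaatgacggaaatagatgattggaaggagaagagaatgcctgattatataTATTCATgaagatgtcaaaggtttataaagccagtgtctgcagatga
The matches begin 148 and 47 bases before the start. Searched on both strands, the motif occurs in 7.92% of 32851 mouse promoters of the same length. It had 0 matches in the promoters of Cga and Tshb, the other pituitary hormone genes searched.

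Cerebellar granule cells, the most numerous neurons of the brain, gave the next widest gaps. Of the 15 listed genes 14 entered, 8 were at least 2-fold higher in FFPE and 0 lower, the median was 1.28, and the summed level was 178 CPM in frozen and 596 in FFPE brain. Gabra6, the GABA-A receptor subunit of granule cells, had 0 reads in frozen and 742 in FFPE brain (at least 348-fold higher). Fat2, a large cadherin of granule cells, had 1 and 2341 reads, a ratio of 3297 (95% interval 591 to 130263). Cbln3, a secreted cerebellin, had 4 and 1069 reads (376-fold, 147 to 1384), and the transcription factor Neurod1 had 21 and 588 (39.4-fold, 25.6 to 64.2). These genes were read almost only in FFPE brain. The other entered members differed less. Etv1 had 442 and 974 reads (log2 difference 1.63), the NMDA receptor subunit Grin2c 396 and 801 (1.51), Cbln1 369 and 648 (1.31) and Pax6 97 and 165 (1.26). Zic1, with 1125 and 1247 reads (0.64), and Zic4, with 182 and 117 (−0.14), did not reach 2-fold, and Barhl1, with 0 and 17, fell below the limit.

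Purkinje cell markers moved the same way, and those of cerebellar interneurons and Bergmann glia were split. Of 15 Purkinje cell genes 8 were higher and 0 lower, with a median of 1.28 and a summed level of 490 CPM in frozen and 946 in FFPE brain. Pcp2, a Purkinje cell protein, had 0 and 98 reads (at least 46.0-fold higher). Car8, a carbonic anhydrase relative that binds the inositol trisphosphate receptor, had 168 and 1510 reads (12.7-fold, 10.8 to 14.9). Ppp1r17 had 41 and 135 reads (log2 difference 2.20), Skor2 7 and 22 (2.08) and Homer3 59 and 161 (1.93). Itpr1, the receptor itself, had 5437 and 9407 reads (1.28). Calb1, a calcium buffer made by many other neurons too, had 1713 and 1222 reads (0.01). Of 10 genes of cerebellar interneurons and Bergmann glia 5 were higher and 0 lower, but 4 lay below 0. The median was 0.75, and the summed level was 77.6 CPM in frozen and 85.0 in FFPE brain. The higher genes included Tfap2b with 7 and 114 reads (log2 difference 4.43), Pax2 with 2 and 27 (19.0-fold, 4.78 to 165) and Tfap2a with 5 and 47 (3.60). The others were Gdf10 with 53 and 129 (1.77) and Hopx with 71 and 139 (1.46).

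Gabra6 is shown because it had no reads in frozen brain, and Neurod2, a cortical gene taken up below, because it had 1 read there. Both promoters are the 250 bases before the start (Gabra6, chr11:42321073-42321322, minus strand; Neurod2, chr11:98329646-98329895, minus strand; RefSeq, GRCm38.p6), with CAGATG, an E-box that transcription factors of the Neurod family can bind, in capitals.
Gabra6: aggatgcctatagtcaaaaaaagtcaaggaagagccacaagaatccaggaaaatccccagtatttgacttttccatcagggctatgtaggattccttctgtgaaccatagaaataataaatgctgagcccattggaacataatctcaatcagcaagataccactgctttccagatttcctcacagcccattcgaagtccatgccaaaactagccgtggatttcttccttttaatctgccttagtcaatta
Neurod2: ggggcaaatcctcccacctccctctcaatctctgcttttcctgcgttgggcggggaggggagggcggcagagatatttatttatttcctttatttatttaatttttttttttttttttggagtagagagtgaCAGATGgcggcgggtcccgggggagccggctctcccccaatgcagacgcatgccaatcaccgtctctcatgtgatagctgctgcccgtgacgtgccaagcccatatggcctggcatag
CAGATG occurs once in the window of Neurod2, 118 bases before the start, and not in that of Gabra6. It was also searched in Neurod1, Neurod6, Slc17a7, Cbln3 and Fat2, with 0 matches in each. On both strands it is found in 14.4% of promoters.

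**Figure D4:**
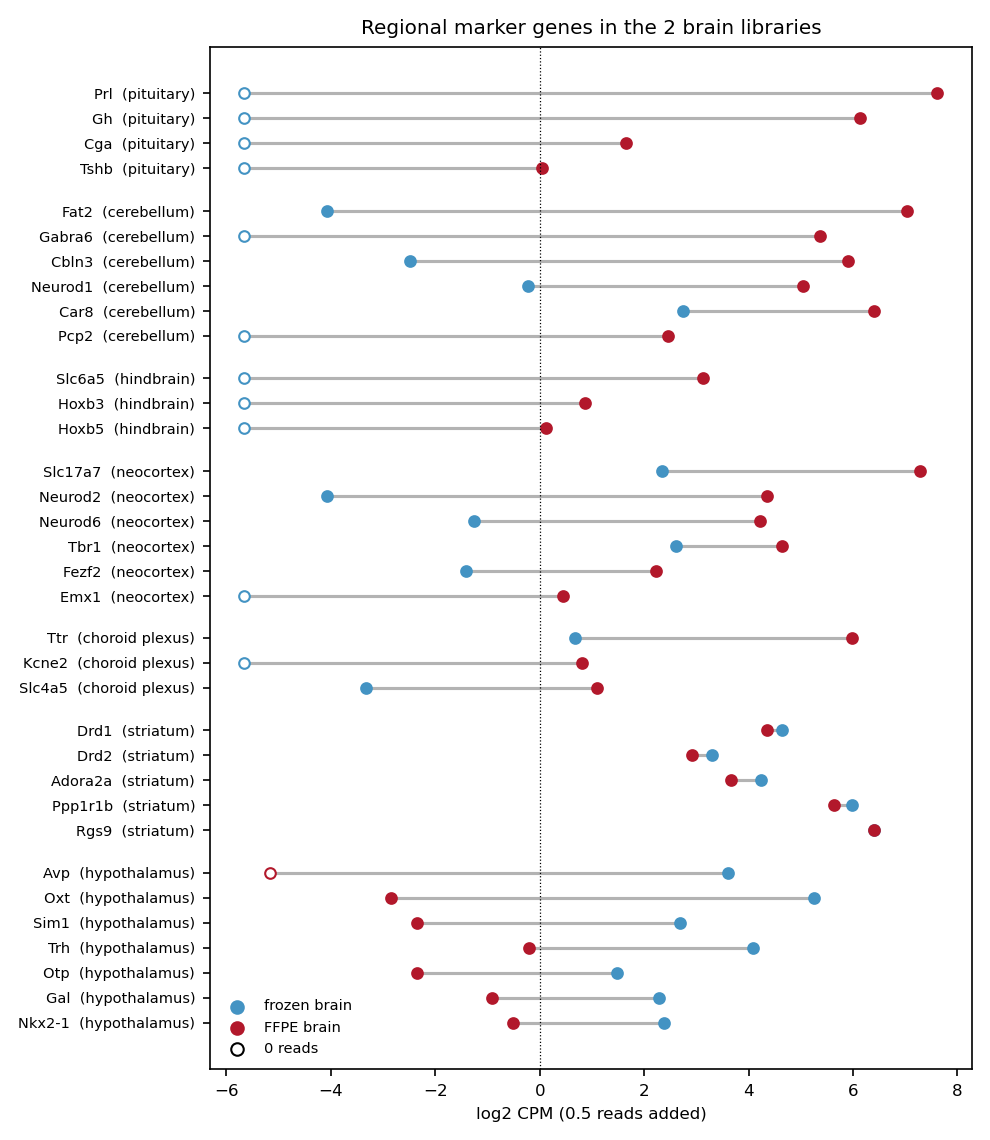
Log2 CPM of regional marker genes in frozen and FFPE brain joined by a line, with open circles where a library has 0 reads and a dotted line at the limit of 0. The cerebellar, hindbrain, pituitary and cortical genes drawn are higher in FFPE brain, and the hypothalamic genes drawn are higher in frozen brain. The striatal genes Drd1 and Drd2 lie close together. Not every list member is drawn: of the neocortical list 10 genes were within 2-fold and 2 lower, and hypothalamic Pomc was higher in FFPE brain.

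Hindbrain transcripts were found almost only in FFPE brain. Of 16 listed genes 13 had no reads in frozen brain and 0 had none in FFPE brain. Of the 16, 7 entered, 6 of them higher and 0 lower, and the other 9 were Hox genes with 1 to 15 reads in FFPE brain and 0 in frozen. The median of those entered was 5.78, or 3.91 with genes without frozen reads at their bounds. Slc6a5, the glycine transporter of inhibitory hindbrain and spinal neurons, had 0 and 156 reads (at least 73.2-fold higher). Hoxb3 had 0 and 32 reads (at least 15.0-fold), and Hoxb5 0 and 19 (at least 8.92-fold). Egr2, which is also on the immediate early list described below, had 6 and 70 reads (log2 difference 3.93) and the glycine receptor subunit Glra1 88 and 133 (1.09).

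Monoamine markers were split. Of 10 serotonin and noradrenaline genes 6 entered, 3 were higher and 1 lower. Slc6a2, the noradrenaline transporter, had 0 and 39 reads (at least 18.3-fold higher). Slc6a4, the serotonin transporter, had 2 and 18 (12.7-fold, 3.03 to 113) and Tph2, the enzyme that starts serotonin synthesis in the brain, 7 and 37 (log2 difference 2.82). Ddc, the decarboxylase shared by all monoamine neurons, went the other way with 168 and 54 reads (−1.13). So did Th, the dopamine-synthesis enzyme of the 14-gene midbrain list, with 125 and 43 (−1.03). The 3 other entered genes of that list were higher: Pou4f1 with 1 and 53 reads (74.6-fold, 12.8 to 3003), En2 with 11 and 196 (log2 difference 4.59), which is also made in the cerebellum, and Aldh1a1 with 274 and 459 (1.24).

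Part of the neocortical list was higher in FFPE brain. Of 22 genes 21 entered, 9 were higher, 10 within 2-fold and 2 lower, the median was 0.82, and the summed level was 427 CPM in frozen and 738 in FFPE brain. Slc17a7, the vesicular glutamate transporter of cortical, hippocampal and granule cells, had 128 reads in frozen and 2798 in FFPE brain (30.8-fold, 25.8 to 37.0). Neurod2 had 1 and 367 reads (517-fold, 92.2 to 20468), Neurod6 10 and 335 (47.2-fold, 25.3 to 99.3) and Emx1, a transcription factor of the developing cortex, 0 and 24 (at least 11.3-fold). Fezf2, of deep-layer neurons, had 9 and 83 (log2 difference 3.63), Ccn2 45 and 137 (2.09), Tbr1 153 and 446 (2.03) and Mef2c 1111 and 2650 (1.75). All of these were read in FFPE brain, and Emx1 and Neurod2 had at most 1 read in frozen brain, but another forebrain gene was alike in both. Bcl11b, of deep-layer cortical and striatal neurons, had 1189 and 986 reads (0.22). Otof, with 980 and 207 (−1.75), and Rspo1, with 95 and 18 (−1.87), were lower.

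The hippocampal list gave 3 higher and 2 lower of 12 entered of 16, with a median of 0.01. Lct had 0 and 22 reads (at least 10.3-fold higher), Dsp, a desmosomal protein of dentate granule cells, 6 and 79 (log2 difference 4.11) and Mpped1 333 and 626 (1.40). Prox1, the dentate granule cell transcription factor, had 500 and 361 (0.02). Wfs1, of CA1 neurons and other forebrain cells, was lower with 1268 and 352 (−1.35), and the peptide receptor Npy2r with 207 and 59 (−1.31). In the olfactory bulb list 4 of 12 entered were higher and 1 lower. Eomes, of mitral and tufted cells, had 27 and 111 reads (2.51) and Cdhr1 59 and 157 (1.90), whereas Dlx5, of migrating inhibitory neuroblasts, had 83 and 23 (−1.34).

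The choroid plexus, the epithelium that secretes cerebrospinal fluid, gave 6 higher and 1 lower of 10 entered of 13, with a median of 2.32. Ttr, the thyroxine carrier transthyretin, had 40 reads in frozen and 1126 in FFPE brain (39.6-fold, 28.9 to 55.8). Kcne2, a potassium channel subunit, had 0 and 31 (at least 14.6-fold higher), the bicarbonate transporter Slc4a5 2 and 38 (26.8-fold, 6.91 to 229), the channel Kcnj13 3 and 26 (12.2-fold, 3.74 to 63.0), F5 15 and 73 (log2 difference 2.74) and Kl 63 and 169 (1.91). Prlr, the prolactin receptor, which hypothalamic neurons make too, was lower with 592 and 153 (−1.45), and Clic6 had 230 and 89 (−0.87). Ependymal genes, which mark the ciliated cells that line the ventricles, were lower: 5 of 7 entered of 11 were lower and 0 higher, with a median of −1.53. Tmem212 had 54 and 4 reads (−3.10), Tekt1 40 and 5, Enkur 35 and 6, Ak7 128 and 41, and Rarres2 99 and 24 (−1.53).

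Hypothalamic peptides and transcription factors were lower in FFPE brain. Of 22 listed genes 13 entered, 12 were lower and 1 higher, the median was −2.92, and the summed level was 117 CPM in frozen and 12.6 in FFPE brain. Avp, vasopressin, had 308 reads in frozen and 0 in FFPE brain (at least 72.9-fold lower). Oxt, oxytocin, had 962 and 2 (342-fold lower, 94.3 to 2825). Both hormones are made in the paraventricular and supraoptic nuclei and carried to the posterior pituitary. Transcription factors of the hypothalamus were lower as well. Sim1, which those neurons need, had 162 and 3 reads (38.3-fold lower, 12.9 to 188), Otp, needed by the same neurons, 70 and 3 (16.6-fold lower, 5.44 to 82.3) and Nkx2-1 131 and 12 (7.75-fold lower). Trh, thyrotropin-releasing hormone, had 426 and 15 (20.2-fold lower, 12.1 to 36.4), galanin (Gal) 122 and 9 (9.63-fold lower) and Magel2 377 and 35 (−2.92). Smaller differences were seen for the histamine enzyme Hdc with 50 and 12 reads, Crh with 92 and 25, Cartpt with 110 and 35, and Tac2 with 80 and 26.

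The exception was Pomc, the precursor of corticotropin and melanotropin, with 17 and 33 reads (1.43). It is made both in the arcuate nucleus and in pituitary cells, which these libraries cannot separate. The other 9 listed genes did not enter: Ghrh with 12 and 1 reads, Fezf1 with 13 and 1, Kiss1 with 10 and 0, Gnrh1 with 10 and 5, Pmch with 5 and 0, Hcrt with 1 and 0, Agrp with 0 and 5, Nr5a1 with 0 and 3, and Npvf with 0 in both.

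Avp and Oxt lie side by side on chromosome 2, transcribed toward each other, and were the 2 largest falls among genes with at least 100 reads. Their promoters, the 250 bases before each start (Oxt, chr2:130575919-130576168, plus strand; Avp, chr2:130582589-130582838, minus strand; RefSeq, GRCm38.p6), are shown to compare the pair, with GGTCA, a core that many nuclear receptors bind, in capitals on either strand.
Oxt: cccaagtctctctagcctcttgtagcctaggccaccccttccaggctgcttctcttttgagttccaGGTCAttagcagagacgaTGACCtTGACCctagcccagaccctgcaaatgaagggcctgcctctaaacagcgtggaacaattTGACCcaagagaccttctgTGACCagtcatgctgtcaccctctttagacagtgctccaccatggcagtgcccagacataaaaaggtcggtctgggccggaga
Avp: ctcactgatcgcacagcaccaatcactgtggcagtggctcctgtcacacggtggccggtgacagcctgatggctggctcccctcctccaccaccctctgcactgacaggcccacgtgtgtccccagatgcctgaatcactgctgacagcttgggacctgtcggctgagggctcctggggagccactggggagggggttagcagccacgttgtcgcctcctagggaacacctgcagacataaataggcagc
The window of Oxt has 5 matches, which begin 184, 166, 160, 102 and 83 bases before the start, and that of Avp has 0. Of the other hypothalamic promoters searched, Trh had 1 match and Sim1 had 0. The motif is short and occurs in 35.2% of promoters.

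Several other genes were among the largest falls. Of the 15 largest falls, Calcr, the calcitonin receptor, had 263 and 2 reads (93.4-fold lower, 25.6 to 775), the insulin receptor substrate Irs4 832 and 27 (21.9-fold), the forebrain cholinergic factor Lhx8 156 and 5 (22.2-fold) and the secretory protein Baiap3 3611 and 281 (9.13-fold). Of 8 cholinergic and motor neuron genes 7 entered, 3 were lower and 1 higher: Ecel1 with 888 and 95 reads (log2 difference −2.72), Isl1 with 124 and 26 (−1.74) and the transporter Slc10a4 with 112 and 28 (−1.49) were lower, and the intermediate filament Prph with 16 and 37 (1.68) was higher. Chat, the acetylcholine-synthesis enzyme, had 170 and 66 (−0.86), and the choline transporter Slc5a7, with 372 and 238 (−0.15), and the vesicular acetylcholine transporter Slc18a3, with 80 and 58 (0.03), were within 2-fold too.

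Most genes of thalamus and striatum, by contrast, lay within 2-fold, though they leaned below 0. Of 14 thalamic genes 10 lay below 0 (median −0.46), and of 20 striatal genes 15 (median −0.33). The shares at least 2-fold lower were 14.3% and 15.0%, against 5.54% over all genes. Of 14 thalamic genes 2 were lower, Gbx2 with 141 and 13 reads (−2.90) and Tnnt1 with 78 and 25 (−1.13), and 1 higher, Vipr2 with 31 and 65 (1.55). The thalamic factor Tcf7l2 had 916 and 485 (−0.42) and the subcortical glutamate transporter Slc17a6 1803 and 793 (−0.69). All 20 striatal genes entered, 3 were lower and 0 higher, and their summed level was 1005 CPM in frozen and 898 in FFPE brain. The dopamine receptors Drd1, with 628 and 368 reads (−0.28), and Drd2, with 248 and 134 (−0.39), stayed within 2-fold, as did the phosphodiesterase Pde10a with 4276 and 3562 (0.23) and Rgs9 with 2144 and 1508 (−0.01). The 3 lower genes were the dynorphin precursor Pdyn with 131 and 15 (−2.59), Six3 with 384 and 95 (−1.52) and the tachykinin precursor Tac1 with 351 and 124 (2.01-fold lower, 1.63 to 2.49).

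Inhibitory neurons gave 3 lower and 2 higher of 15 entered of 16. The GABA-synthesis enzyme Gad2 had 6485 reads in frozen and 1819 in FFPE brain (−1.34), the vesicular GABA transporter Slc32a1 2038 and 596 (−1.28) and Lhx6, of interneurons born in the medial ganglionic eminence, 355 and 83 (−1.60). Vip, with 39 and 69 reads (1.31), and Ndnf, with 87 and 151 (1.29), both of superficial cortical interneurons, were higher.

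Most genes of glia and vessels lay within 2-fold. Of 19 astrocyte genes 3 were lower and 1 higher, with a median of −0.21. The higher one was the water channel Aqp4, with 1080 and 1581 reads (1.04). The lower ones were Ntsr2 with 890 and 276 reads (−1.19), Ndrg2 with 9812 and 3057 (−1.19) and Mlc1 with 1557 and 487 (−1.18), and 14 of the 19 genes lay below 0. Of 21 oligodendrocyte genes 1 was lower, Ppp1r14a with 167 and 51 (−1.21), and 1 higher, Klk6 with 18 and 42 (1.69). The abundant myelin gene Mbp, with 21387 and 14497 reads (−0.07), was close to equal on the scaled level. None of 16 endothelial genes (median 0.18) and none of 11 pericyte genes (median −0.16) differed by 2-fold. Of the entered genes of oligodendrocyte precursors, meninges and blood, 1 of 12, 1 of 12 and 1 of 5 were lower and 0 higher, with medians of −0.66, 0.31 and −0.29, and 10 of the 12 precursor genes lay below 0. None of 10 nuclear long non-coding RNAs (median 0.17) and none of 4 entered genes of cartilage, bone and epithelium (median 0.38) differed by 2-fold. Of the genes of microglia, the macrophages of the brain, all 18 lay below 0, 4 of them by at least 2-fold, with a median of −0.72 and a summed level of 183 CPM in frozen and 110 in FFPE brain. Trem2 had 75 and 10 reads (−2.35), the complement gene C1qa 229 and 65 (−1.32), C1qc 148 and 49 (−1.09) and the protease Ctss 495 and 162 (−1.11). In heart, kidney and liver the median of the same list's entered genes was −0.57, −0.39 and −0.12.

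Immediate early genes, which neurons and other cells transcribe within minutes of stimulation, were higher in FFPE brain. Of 19 listed genes 18 entered, 14 were at least 2-fold higher and 0 lower, with a median of 1.87 and a summed level of 94.1 CPM in frozen and 332 in FFPE brain. The orphan nuclear receptor Nr4a2 had 57 reads in frozen and 517 in FFPE brain (12.8-fold), Nr4a3 33 and 163 (log2 difference 2.78) and Nr4a1 132 and 489 (2.38). Arc, a synaptic cytoskeletal gene, had 268 and 996 (5.23-fold), Egr1 517 and 1371 (3.73-fold) and Fos 94 and 240 (3.60-fold). The neuron-specific factor Npas4, with 146 and 153 (0.56), and Jun, with 374 and 310 (0.22), did not reach 2-fold. In the other organs the list's medians were 0.34 in heart, 0.09 in kidney and 0.03 in liver, beside 0.05, 0.02 and −0.02 over all genes read there. In heart 2 of 14 genes were higher and 0 lower (over all genes 7.53% and 3.99%), in kidney 3 higher and 3 lower of 12 (6.01% and 3.06%), and in liver 0 higher and 1 lower of 9 (4.69% and 2.78%). The difference between organs was tested gene by gene, as described below, and the 4 genes called in its main setting were all Y-linked. No immediate early gene was among them, with a limma adjusted p of 0.648 for Fosl2, 0.830 for Egr1 and 0.997 for Arc. The heat shock list of brain, with 1 higher (Hspa1b, 12 and 36 reads, log2 difference 2.04) and 0 lower of 16 entered, had a median of −0.20.

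**Figure D5:**
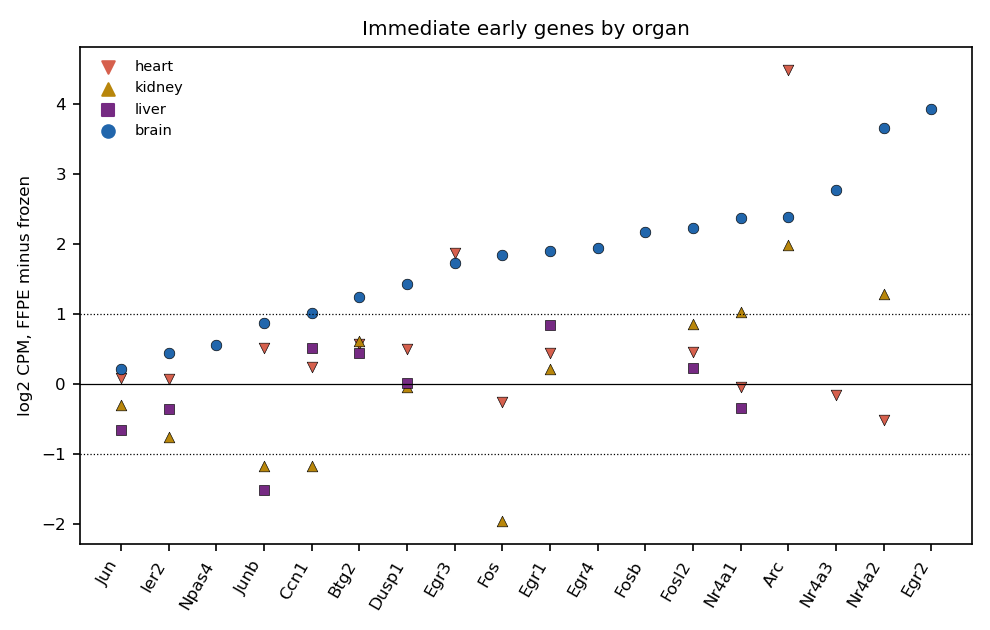
Log2 difference, FFPE minus frozen, of the immediate early genes in each organ, 1 point per gene whose log2 CPM is above 0 in at least 1 of that organ's libraries. Brain points centre on 1.87, and those of heart, kidney and liver on 0.34, 0.09 and 0.03.

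The brain difference was then tested against the differences of heart, kidney and liver with limma, the one test the design allows. The residual spread comes from those 3 organs alone, so the lone brain pair is assumed to vary as they do. The spread of each gene was also moved by limma toward a trend over all genes tested. At a Benjamini-Hochberg adjusted p under 0.05, 4 of 14142 genes were called higher (0.0283%) and 0 lower (0%), and 335 and 370 had an unadjusted p under 0.05, 4.99% of all. All 4 were the Y-linked genes. For Ddx3y the brain difference exceeded the mean of the other organs by 10.61 ± 0.53 (SE; limma adjusted p = 0.00584), and for Uty by 8.26 ± 0.40 (limma adjusted p = 0.00584). For Eif2s3y the excess was 9.91 ± 0.54 and for Kdm5d 9.45 ± 0.53 (both limma adjusted p = 0.00587). Leaving out liver ended all 4 calls, with an adjusted p of 0.938 for Uty, and limma's voom called none of them. Prl (12.03, adjusted p = 0.555), Gh (10.28, 0.450), Oxt (−8.22, 0.450) and Avp (−8.37, 0.388) did not pass this test. Avp had 0 reads in every heart, kidney and liver library, so its differences there come only from the 0.5 reads added and the library sizes. Oxt had at most 1 read in any of them, Gh at most 5 and Prl at most 15. The test thus had next to no level of these genes in the other organs to compare with, and cannot decide on them. The calls of these 4 genes depended on the setting. On log2(CPM + 5) all 4 passed, with limma adjusted p = 0.00194 for Prl and 0.00112 for Gh, Oxt and Avp, among 245 genes called higher and 374 lower. Without kidney, Avp passed at an adjusted p of 0.0495. The design has 2 residual degrees of freedom, to which limma added 4.11 prior ones from the trend over all genes.

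The lower gene with the smallest adjusted p was not a brain gene. Alb, serum albumin of the liver, had 228 reads in frozen and 3 in FFPE brain (54.0-fold lower, 18.2 to 264), and its difference lay 5.04 below that of the other organs (limma adjusted p = 0.0776). It passed with robust variance (adjusted p = 0.0181), with log2 values above 0 required in every organ (0.00358), without heart (0.0279) and without kidney (0.000608), and was at 0.955 without liver. Other liver-secreted proteins were also read in frozen brain: Serpina3k with 36 and 0 reads, Ahsg with 27 and 1 (19.2-fold lower, 3.16 to 785) and Apob with 63 and 9. Some muscle genes were read mainly in FFPE brain, and those named first were picked for their rises or adjusted p. Mybpc1, of skeletal muscle, had 1 and 129 reads (182-fold, 32.0 to 7230.0), Igfn1 4 and 134 (log2 difference 5.40), Mybpc3, of heart muscle, 1 and 48 (67.6-fold, 11.6 to 2725) and the fast myosin Myh4 8 and 46 (2.95), whereas the slow myosin Myh7 had 125 and 33 (−1.41). Of the 13-gene skeletal muscle list, which lacks Mybpc1, Igfn1 and Mybpc3, 5 entered, 2 higher and 1 lower. Acta1 was within 2-fold (0.18). The whole list had 509 reads in frozen and 538 in FFPE brain. Of these, 318 and 374 were of Pvalb, which is also on the inhibitory neuron list. The part that transcripts of other tissues have in the brain differences was not tested.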

How the data were processed

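Total RNA was measured in 8 mouse libraries, grouped by their tissue and treatment labels, 1 per group. HISAT2, featureCounts, limma and genome mm10 are named without versions in the submitters' processing notes. The annotation, strand setting and scaling, not given in the sources used here, may affect values. Values were deposited by the authors on a log2 scale. As the numbers show, they are log2 CPM with 0.5 added to each read number, on a library size of total reads times a scaling factor (1.76 for FFPE brain, 1.50 for frozen brain). Whole reads were recovered for 100% of values, within 1e-06. Without strand, reads of a gene and an overlapping one cannot be told apart.

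Genes were taken as higher or lower at a log2 difference of at least 1. With 0 reads in both brains the difference is 0.49. Ratios carry exact conditional binomial (Clopper-Pearson) intervals. The test was limma 3.58.1 (R 4.3.3) with a mean-variance trend and terms for organ, FFPE and FFPE in brain, over the 14142 genes. It and the intervals were tried on simulated data. The simulated brain pair varied as the other organs did, so that assumption was not tested. Simulated frozen means were kept away from 0 reads, so the intervals were not tested for genes with hardly any reads there. Each p-value measures only the spread between organs, moved toward the trend over all genes. The animals of those organs are not stated.

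The brain pair, 35 gene lists and 4 lists by symbol pattern were chosen with earlier results of these data known. The text names the 15 largest rises and falls with at least 100 reads, up to 5 members per list, list members without reads in 1 library, the 6 sex-linked genes and the 6 smallest adjusted p in each direction. Other named genes, such as Drd1, Mbp and Calb1, were chosen after their values were seen. Some list members are counted but not reported here by name. Transcript lengths come from GENCODE M21 (the longest per gene). Of 15 genes looked up, 14 matched the RefSeq promoters. No count model was used. The closing section gives other scalings, filters, added reads, a 4-fold limit, voom and each organ left out.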

Additional observations from a re-analysis of the deposited data

Results flagged for a closer look

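The brain difference, FFPE minus frozen, lay apart from the same difference in heart, kidney and liver for the 4 Y-linked genes, by a test of the difference itself (limma). The excess over the mean of the other organs was 8.26 for Uty, 10.61 for Ddx3y, 9.91 for Eif2s3y and 9.45 for Kdm5d on the log2 scale. In brain the genes had 0 or 1 reads in the frozen and 181 to 224 in the FFPE library, whereas both libraries of each other organ held Ddx3y reads. Xist was nearly equal in the brain pair (log2 difference 0.09). It was higher in FFPE by 8.91 in heart, 12.96 in kidney and 12.28 in liver. Xist differed in the opposite way, with −11.29 against the other organs and a limma adjusted p of 0.336. Xist passed with voom (0.033), with log2 values above 0 in every organ (0.0183), on log2(CPM + 5) (0.0293), without heart (0.000102) and without kidney (0.00991), and was at 0.955 without liver.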

How the results depend on the processing

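The limma fit pairs the FFPE and frozen library of each organ; within brain no paired analysis was possible because each group holds 1 library. Against 800 higher and 783 lower genes, the counts were 1231 and 455 without the scaling factor, 165 and 120 on log2(CPM + 5), 283 and 285 with a log2 value above 3 required, 228 and 115 at 4-fold, 4760 and 1889 with every gene that has a read, and 448 and 519 with a log2 value above 0 in both brains. Against 10 lists higher and 3 lower by their medians, 2 and 0 were past the fold on log2(CPM + 5), and 5 and 1 at 4-fold. Of 192 list medians recomputed 176 stayed on their side of the fold, 14 no longer reached it, 2 newly did and 0 changed direction. The neuropeptide median was −0.88 without the factor, and Purkinje and choroid plexus medians were 0.62 and 0.52 with log2 values above 3. Of 1696 values for 424 named genes 1560 stayed on their side, 113 no longer reached the fold, 23 newly did and 0 changed direction. In limma's test, against 4 higher and 0 lower, voom called 0 and 1, no trend 0 and 0, robust variance 6 and 1, quantile normalization 0 and 0, log2 values above 0 in every organ 6 and 2, and log2(CPM + 5) 245 and 374. Leaving out an organ gave 0 (liver) to 9 (kidney) higher and 0 to 6 lower. The cause of these changes was not tested. At 3 reads, the floor, a gene is at 0.168 CPM in FFPE brain, so 0 reads allow a level of up to that.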

Other observations

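Receptor subunits and peptides showed some of the same split. Of 15 GABA-A receptor subunits 3 were at least 2-fold lower in FFPE brain and 1, Gabra6, was higher, with a median log2 difference of 0.10. Gabrq had 253 reads in frozen and 12 in FFPE brain (15.0-fold lower), Gabre 169 and 9 (13.3-fold lower) and Gabrg1 1081 and 229 (3.35-fold lower). Gabre and Gabrq lie in 1 cluster on the X chromosome and encode the epsilon and theta subunits, which are known from the hypothalamus and brainstem. Among 17 entered ionotropic glutamate receptor subunits Grin2c (1.51) and Grin2a (1.06) were higher and Grin2d (−1.22) and Grin3a (−1.04) lower, with a median of 0.04. Of 19 entered neuropeptide genes 11 were lower and 3 higher (median −1.11). Beyond the hypothalamic peptides, neurotensin (Nts) had 271 and 35 reads (−2.44) and Pnoc 156 and 40 (−1.46), and cholecystokinin (Cck), which cortical neurons make, had 275 and 534 (1.45).

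Members of some RNA classes shared a direction. All 76 cytoplasmic ribosomal protein genes lay below 0, 17 of them by at least 2-fold, with a median of −0.75. In heart, kidney and liver the median was −0.90, −0.59 and −0.74. Rpl18 had 410 reads in frozen and 100 in FFPE brain (−1.54). Of 77 mitochondrial ribosomal protein genes 6 were lower and 0 higher (median −0.40), with medians of −0.63 in heart, −0.62 in kidney and −0.46 in liver. Of 77 entered nuclear genes of the respiratory chain 9 were lower and 0 higher (median −0.60). Their medians were −0.94 in heart, −0.90 in kidney and −0.66 in liver. Rn18s, the 18S ribosomal RNA, had 421561 reads in frozen and 22041 in FFPE brain (−3.76). It was lower in FFPE in the other organs too, by −1.99 in heart, −7.46 in kidney and −5.91 in liver. Small nucleolar and Cajal body RNAs, which guide the modification of other RNAs, were higher: 44 of 85 entered were higher and 1 lower, with a median of 1.11. In heart 8 of 83 were higher and 13 lower (median −0.04), in kidney 32 of 82 higher and 12 lower (0.14), and in liver 24 of 83 higher and 12 lower (0.21). Snora30 had 81 and 515 reads (3.15) and Snora33 10 and 97 (3.71). Many of these RNAs lie inside introns of other genes, whose reads the table cannot separate from theirs.

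Reads of brain genes were found in other organs. Frozen and FFPE heart had 28 and 215 reads of Slc17a7, 15 and 44 of Snap25, 0 and 16 of Gabra6 and 4 and 16 of Fat2, and frozen and FFPE kidney 3 and 33 of Fat2.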
